A study of Mus musculus with 12 samples.

Results

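The genes described here are the collagen chains, the polypeptides from which collagen triple helices are built. They were chosen by name: every gene whose symbol in the platform annotation reads Col, a number, a and a number. One probe set stood for each gene, the one with the highest mean over the 12 arrays among the probe sets tied to exactly 1 gene. By this rule 42 collagen genes, read by 82 probe sets, were found among 18193 genes. The level of a probe set over all arrays was the only measured value in the choice, and no difference between groups entered it. The group was proposed for description with results of these arrays already known. A further 3 chains of the collagen lists (Col6a6, Col21a1 and Col28a1) were not analysed here.

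The study concerned the RB pathway and quiescence in stem cells of the adult mouse epidermis. Keratinocytes from the skin of adult mice of the strain labelled C57 DBA were parted by magnetic sorting (MACS) into cells that carried the surface glycoprotein CD34, a marker of the hair follicle bulge, and cells that did not. Each of 3 isolations was a pool of at least 6 mice, and each isolation gave 1 RNA per fraction, read on 2 Affymetrix mouse expression arrays. The 6 CD34+ and 6 CD34- arrays thus stand for 3 RNAs per fraction. Arrays of a shared RNA are not named in the labels, so arrays entered the tests separately, and p-values are too small wherever arrays of 1 RNA are alike. Both groups were otherwise without a stated allele or treatment. A pool gives no value for a single animal, and each fraction holds whatever cells the sort left in it. As these are bulk samples, fewer cells of a type and less RNA per cell cannot be told apart.

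Every collagen is a trimer of chains, in some types of a single kind of chain and in others of different ones, wound into a triple helix that needs hydroxylated proline to hold at body temperature. Fibrillar collagens (types I, II, III, V, XI and others) form the banded fibres of the dermis. Type IV forms the sheet-like network of basement membranes, and type VI forms beaded filaments beside them. In skin, keratinocytes rest on such a basement membrane, to which type XVII (a transmembrane collagen of the hemidesmosome) and type VII (the anchoring fibril) tie the epidermis. Fibroblasts are the classical source of the fibrillar chains. The hair follicle bulge, where CD34+ keratinocytes sit, is the part of the follicle to which the arrector pili muscle attaches.

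The values are log2 RMA signals, on which a difference of 1 is a factor of 2, and levels of different probe sets cannot be set against each other. The Trpn control probe sets, taken as the floor of the scale, read 2.31 to 2.95. Cd34 itself read 9.14 to 10.58 (median 10.37) on the CD34+ arrays and 2.95 to 3.71 (median 3.18) on the CD34- arrays, so the labels and the sort marker went together. CD34+ arrays 1, 3 and 5 stood apart. Their values spread less over the probe sets (SD 1.92 to 2.07) than those of the other 9 arrays (2.19 to 2.32). The 3' to 5' gap of the Actb probe sets, a sign of RNA integrity and labelling, was wider in CD34+ (4.54 ± 0.66, SD, n = 6) than in CD34- (2.48 ± 0.49) arrays, without overlap. Its part in the results was not tested.

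Promoter sequence from RefSeq (GRCm38.p6) was at hand for 33 of the 42 genes. The 5 windows below show neighbouring genes whose differences are described further on: Col6a1 and Col6a2 are neighbours that were both much higher in CD34+ cells, Col4a5 and Col4a6 are a head-to-head pair that were both lower, and Col4a1 belongs to a head-to-head pair in which neither passed the test. Each is the 250 bases before the gene's start, written 5' to 3' on the gene's strand. Capitals mark motifs searched on both strands, so that the reverse complement is in capitals too. The GC box was searched as GGGCGG. The box read by nuclear factor Y was searched as CCAAT, and is called after those letters. The TATA box was searched with the longer form TATAAA.
Col6a1: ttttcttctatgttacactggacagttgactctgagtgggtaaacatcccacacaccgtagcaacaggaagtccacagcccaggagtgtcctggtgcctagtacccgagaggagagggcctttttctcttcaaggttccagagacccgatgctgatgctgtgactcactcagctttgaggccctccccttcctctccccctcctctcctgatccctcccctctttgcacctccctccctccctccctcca
Col6a2: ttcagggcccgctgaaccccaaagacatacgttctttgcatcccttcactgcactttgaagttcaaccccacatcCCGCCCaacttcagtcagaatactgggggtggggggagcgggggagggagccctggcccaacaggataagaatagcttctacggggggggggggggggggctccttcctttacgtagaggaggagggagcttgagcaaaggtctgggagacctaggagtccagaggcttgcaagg
Col4a5: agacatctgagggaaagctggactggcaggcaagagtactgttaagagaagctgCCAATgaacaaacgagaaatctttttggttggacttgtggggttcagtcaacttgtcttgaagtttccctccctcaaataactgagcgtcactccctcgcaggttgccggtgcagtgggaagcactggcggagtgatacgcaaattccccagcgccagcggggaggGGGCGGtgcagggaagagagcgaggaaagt
Col4a6: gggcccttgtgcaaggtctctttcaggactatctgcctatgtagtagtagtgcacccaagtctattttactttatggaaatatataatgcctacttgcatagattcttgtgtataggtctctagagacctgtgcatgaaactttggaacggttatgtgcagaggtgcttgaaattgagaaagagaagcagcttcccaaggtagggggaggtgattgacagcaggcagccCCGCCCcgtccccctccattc
Col4a1: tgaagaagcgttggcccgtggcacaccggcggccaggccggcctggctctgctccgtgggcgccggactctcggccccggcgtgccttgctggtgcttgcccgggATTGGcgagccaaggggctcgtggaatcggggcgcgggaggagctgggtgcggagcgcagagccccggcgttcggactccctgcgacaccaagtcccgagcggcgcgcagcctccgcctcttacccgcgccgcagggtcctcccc
They lie at chr10:76726045-76726294 on the minus strand (Col6a1), chr10:76623631-76623880 on the minus strand (Col6a2, for which 2 starts are listed), chrX:141475169-141475418 on the plus strand (Col4a5), chrX:141474077-141474326 on the minus strand (Col4a6) and chr8:11312827-11313076 on the minus strand (Col4a1). The starts of Col4a5 and Col4a6 lie 1343 bases apart and those of Col4a1 and Col4a2 21 bases apart. A GC box was found in the Col6a2, Col4a5 and Col4a6 windows, a CCAAT box in those of Col4a5 and Col4a1, and a TATA box in none of the 5. Of 36 windows of collagen genes, 58.3% held a GC box, 36.1% a CCAAT box and 13.9% a TATA box. Among all 32851 windows the shares were 32.7%, 33.8% and 12.4%, and the collagen windows were richer in G and C (median 59.0% against 52.4%). A match is a description of letters and not a site.

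In CD34+ cells 13 of the 42 collagen genes (31.0%) were higher by limma at an adjusted p under 0.05, against 7.99% of all 18193 genes called higher. Another 5 (11.9%) were lower, against 18.1% of all genes called lower, and 24 did not pass. In either direction 18 of 42 were called, against 26.1% of all genes. The higher genes were led by chains of type VI (Col6a1 and Col6a2), type VIII (Col8a2), type I (Col1a2) and type V (Col5a2). The lower genes were the network chains Col4a5 and Col4a6, the transmembrane chain Col23a1, the fibril-associated chain Col16a1 and the fibrillar chain Col27a1. The median difference over the 42 genes was 0.32 on the log2 scale, against 0.04 over all genes, and 30 of 42 were above 0. All 6 CD34+ arrays lay above all 6 CD34- arrays for 8 collagen genes (19.0%, against 4.17% of all genes) and below them for 4 (9.5%, against 8.77%). With arrays 1-2, 3-4 and 5-6 averaged, 3 values against 3, 16 collagen genes were higher and 5 lower (backgrounds 9.90% and 19.3%). Each mean takes in 1 odd-numbered and 1 even-numbered array, so a split between these drops out of the spread. Without CD34+ arrays 1, 3 and 5, 9 collagen genes were higher (background 8.81%), 8 of them among the 13, and 4 were lower (background 10.4%). For 3 members, Col24a1, Col26a1 and Col6a5, both group means were within the range of the Trpn controls.

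**Figure D1:**
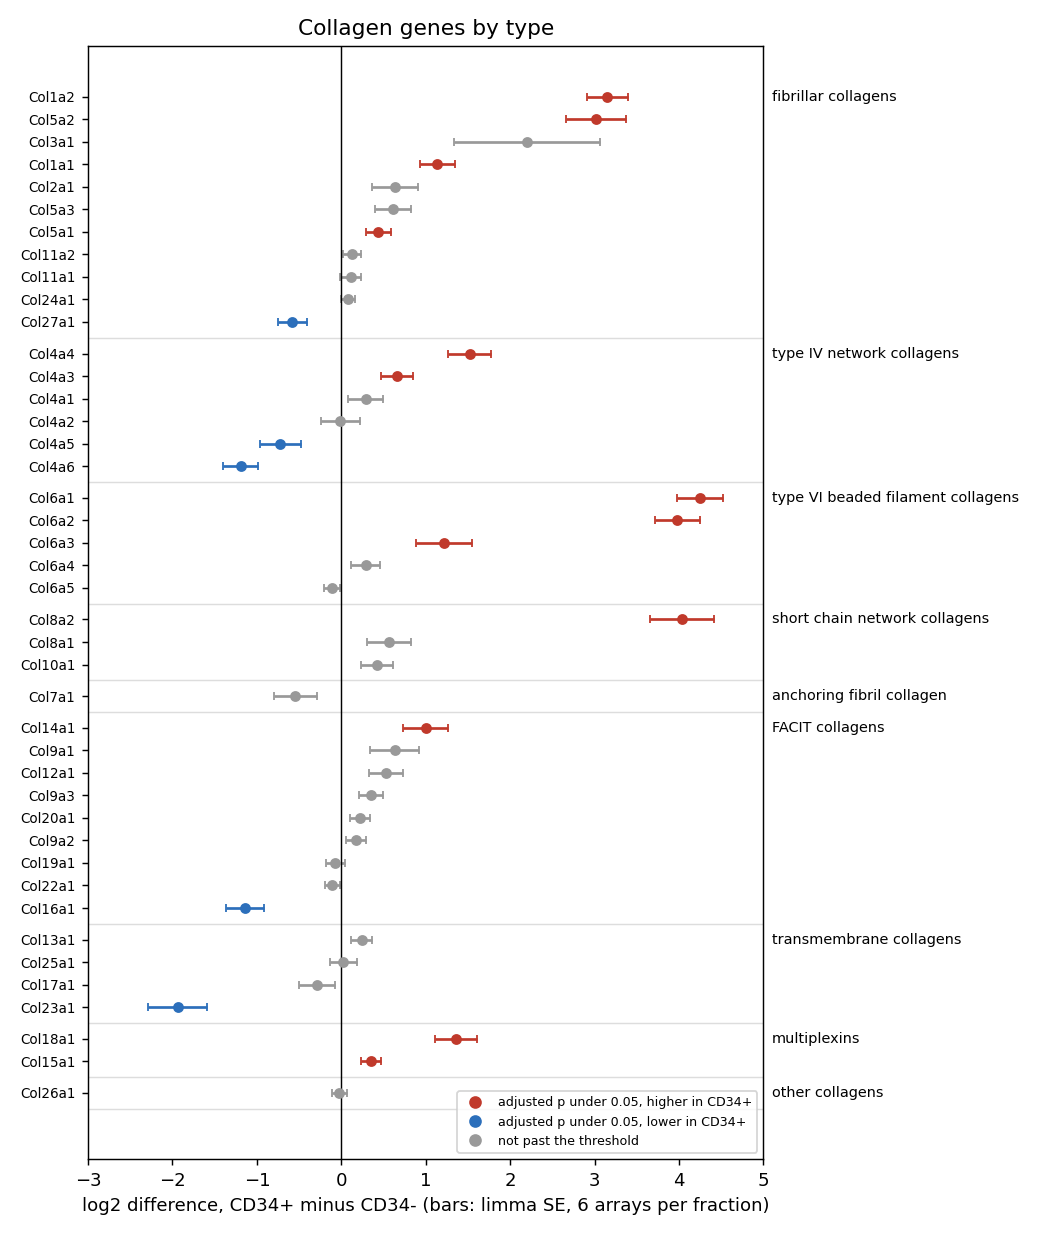
Log2 difference of each of the 42 collagen genes, CD34+ minus CD34- (x axis), with genes grouped by collagen type (y axis); red points were called higher, blue points lower and grey points not called, and bars are limma's SE. The largest differences to the right belong to Col6a1, Col8a2 and Col6a2 (4.25, 4.03 and 3.98), and the largest to the left to Col23a1 (-1.94).

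Type VI collagen held the largest difference, that of Col6a1. Its classical protomer joins the α1 and α2 chains with the long α3 chain. Of the 5 type VI chains measured, 3 were higher, 0 were lower and the median difference was 1.22 (over all genes 7.99% were higher and 18.1% lower). Col6a1 read 10.11, 10.56, 8.51, 9.97, 9.44 and 10.06 on CD34+ arrays 1 to 6, and 5.47, 5.39, 5.28, 5.41, 5.89 and 5.71 on CD34- arrays 1 to 6. Every CD34+ array was above every CD34- array, array 3 being the lowest of the CD34+ arrays. The difference was 4.25 (SE 0.27, adjusted p = 2.39e-07), a 19.1-fold higher signal.

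Col6a2, whose gene lies next to Col6a1 on chromosome 10 with no protein-coding gene between them, was higher by nearly as much. It read 9.70, 10.16, 8.42, 8.41, 9.03 and 9.66 on CD34+ arrays 1 to 6 and 5.30, 5.26, 5.16, 5.33, 5.28 and 5.15 on CD34- arrays. The CD34- values lay close together, far under the lowest CD34+ value. The difference was 3.98 (SE 0.26, adjusted p = 3.45e-07), or 15.8-fold, and a second Col6a2 probe set was higher by 1.72 (adjusted p = 3.65e-05 over all probe sets). The log2 ratio of Col6a1 to Col6a2 was 0.55 ± 0.51 (SD, n = 6 arrays) in CD34+ and 0.28 ± 0.24 in CD34- cells, with overlapping arrays.

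Col6a3, the third partner, was higher too, but by less. It read 4.28 to 6.65 (median 5.82) on CD34+ and 4.04 to 5.14 (median 4.47) on CD34- arrays, which overlapped because CD34+ array 4 read 4.28. The difference was 1.22 (SE 0.33, adjusted p = 0.0148), and it was 1.01 (adjusted p = 0.116) without CD34+ arrays 1, 3 and 5. The log2 ratio of Col6a1 to Col6a3 was 4.02 ± 1.10 in CD34+ and 0.99 ± 0.33 in CD34- cells, with no overlap, so the difference between fractions was larger for Col6a1 than for Col6a3 by 3.03. Col6a4 read 3.07 to 4.21 (median 3.62) on CD34+ and 3.12 to 3.47 (median 3.30) on CD34- arrays, with a difference of 0.29 (SE 0.17, adjusted p = 0.226). Col6a5 was at the low end throughout, with 2.36 to 2.77 (median 2.55) on CD34+ arrays, 2.56 to 2.78 (median 2.63) on CD34- arrays and a difference of -0.10 (SE 0.10, adjusted p = 0.419). The arrays of both these chains overlapped between fractions.

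**Figure D2:**
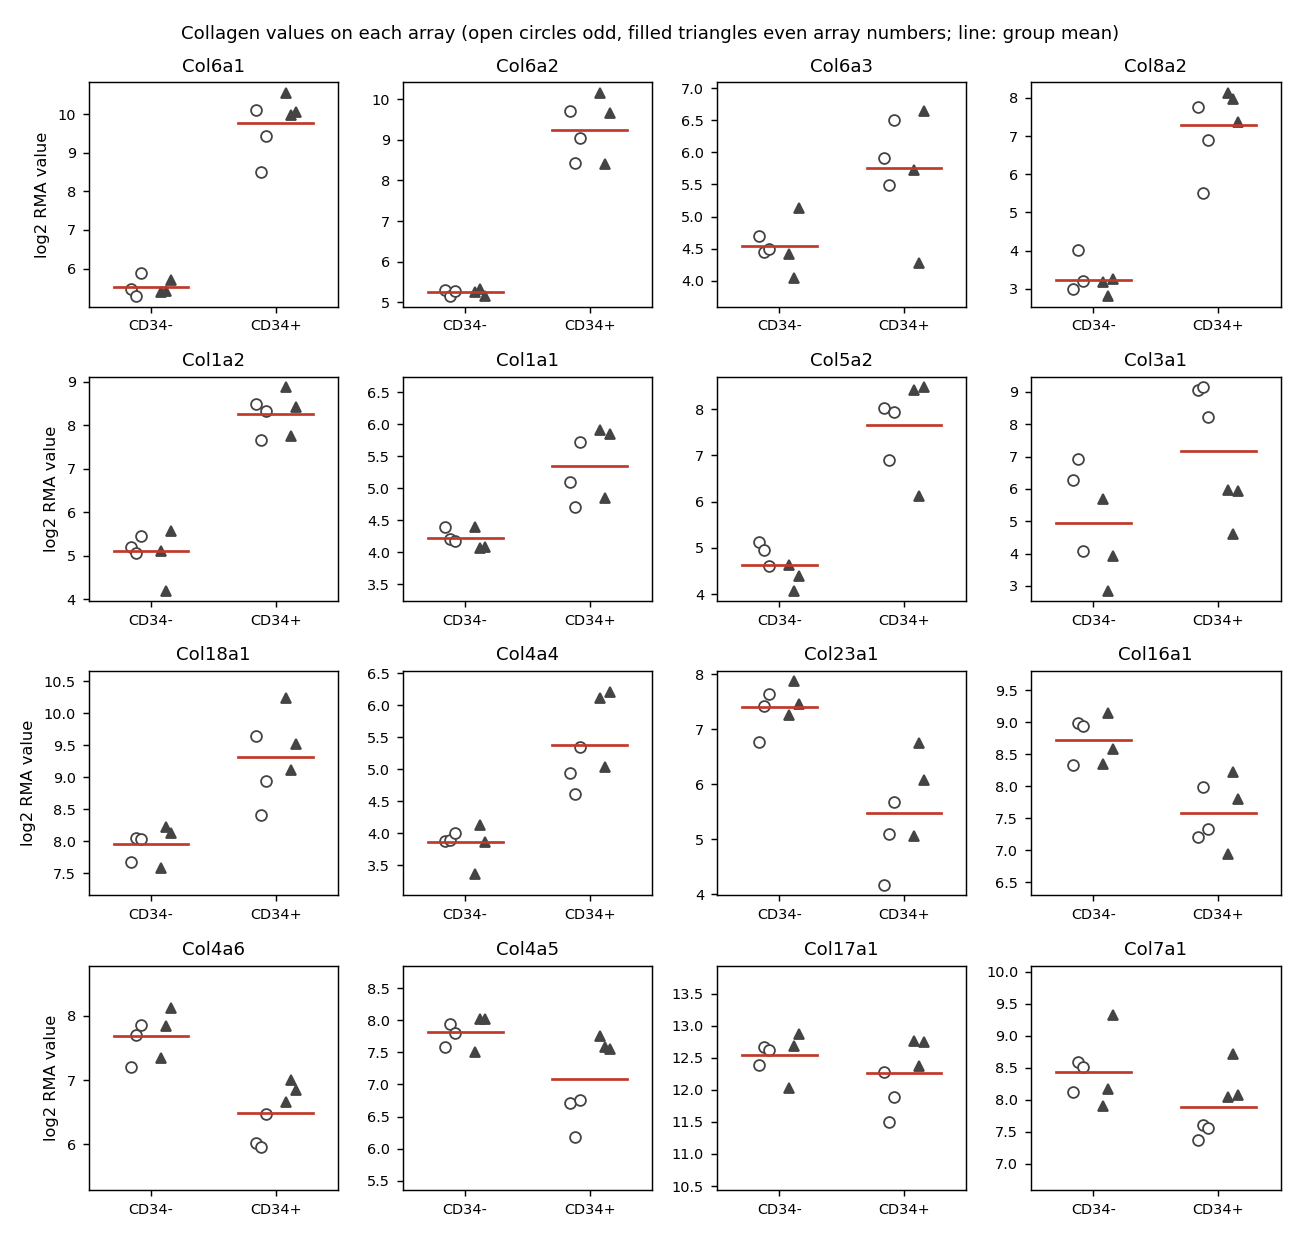
Log2 RMA signal of 16 collagen genes on each of the 12 arrays, 1 panel per gene; open circles are odd-numbered and triangles even-numbered arrays of a fraction, and the red line is the mean. Col6a1 and Col6a2 show no overlap between fractions, Col4a6 and Col16a1 are lower on every CD34+ array, and Col3a1 splits by odd and even number.

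Among the fibrillar collagens 4 of 11 genes were higher, 1 was lower and the median difference was 0.61, that is 36.4% higher and 9.1% lower, against 7.99% and 18.1% of all genes. Type I collagen, the main fibre of the dermis, is made of α1 and α2 chains. Col1a2 read 8.50, 8.88, 7.67, 7.75, 8.32 and 8.42 on CD34+ arrays 1 to 6 and 5.21, 5.12, 5.07, 4.20, 5.46 and 5.58 on CD34- arrays. The fractions were well apart at their nearest arrays, CD34+ array 3 and CD34- array 6, and CD34- array 4 was the lowest value. The difference was 3.15 (SE 0.24, adjusted p = 1.5e-06), or 8.87-fold, with other Col1a2 probe sets at 2.76 (adjusted p = 2.39e-05) and 0.46 (adjusted p = 0.0125). The last of these had both group means (2.89 in CD34+ and 2.43 in CD34-) within the range of the Trpn controls.

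Its partner Col1a1 was higher by less. Col1a1 read 4.70 to 5.91 (median 5.41) on CD34+ arrays and 4.07 to 4.39 (median 4.19) on CD34- arrays, without overlap. The difference was 1.14 (SE 0.20, adjusted p = 0.00115), or 2.2-fold, and another Col1a1 probe set was at 0.50 (adjusted p = 0.07). The log2 ratio of Col1a2 to Col1a1 was 2.90 ± 0.30 in CD34+ and 0.89 ± 0.48 in CD34- cells, with no overlap.

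Type V collagen sits inside type I fibres and governs their width. Col5a2 read 8.02, 8.41, 6.91, 6.13, 7.94 and 8.48 on CD34+ arrays 1 to 6 and 5.13, 4.62, 4.96, 4.07, 4.61 and 4.39 on CD34- arrays, with every CD34+ array above. The difference was 3.02 (SE 0.36, adjusted p = 5.82e-05), or 8.11-fold. Col5a1, with which Col5a2 forms a trimer, read 4.84 to 5.60 (median 5.32) against 4.62 to 5.23 (median 4.73), which overlapped. Its difference of 0.44 (SE 0.15, adjusted p = 0.0446) was no longer called without any 1 of CD34+ arrays 1, 3, 5 and 6 or CD34- arrays 2, 3, 4 and 6 (adjusted p up to 0.0969), and 1 of its other probe sets was at 1.22 (adjusted p = 0.00226) and another at -0.02. Col5a3 was at 0.61 (SE 0.22, adjusted p = 0.0516), and was called without CD34+ array 2 or 4 or CD34- array 3. It was at 0.295 (adjusted p = 0.394) without CD34+ arrays 1, 3 and 5. With the averaged arrays Col5a3 passed (adjusted p = 0.00606) and Col5a1 did not (adjusted p = 0.0662).

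Type III collagen, a homotrimer of soft tissue and young scars, gave the widest scatter within both fractions. Col3a1 read 9.05, 5.96, 9.15, 4.60, 8.23 and 5.94 on CD34+ arrays 1 to 6 and 6.26, 5.70, 6.92, 2.85, 4.08 and 3.92 on CD34- arrays. The 3 odd CD34+ arrays were all above 8 and the 3 even ones all below 6, while the fractions overlapped. The difference was 2.20 (SE 0.86, adjusted p = 0.0749). It passed with arrays 1-2, 3-4 and 5-6 averaged (adjusted p = 0.0106), a pairing that no label states. It was 0.54 (adjusted p = 0.718) without CD34+ arrays 1, 3 and 5, and it was called on leaving out CD34+ array 4 (2.71, adjusted p = 0.0214) or, among the CD34- arrays, array 3 (2.59, adjusted p = 0.0488). A second Col3a1 probe set was higher in CD34+ cells by 0.88 (adjusted p = 0.000997). Col5a2 lies next to Col3a1 on chromosome 1, with no protein-coding gene between them.

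The lower fibrillar gene was Col27a1, at -0.58 (SE 0.17, adjusted p = 0.0246) with no overlap between fractions. Its adjusted p was 0.0534 when CD34- array 3 was left out and 0.0516 when CD34- array 4 was, which ended the call. Col2a1, the cartilage chain, was at 0.64 (SE 0.27, adjusted p = 0.0968), and passed with the averaged arrays (adjusted p = 0.00749). Without CD34+ arrays 1, 3 and 5 Col2a1 was at 0.04 (adjusted p = 0.919). Col11a1, Col11a2 and Col24a1 were between 0.08 and 0.13 and did not pass.

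The 6 type IV chains went in different directions. They pair on the chromosomes as α1 with α2, α3 with α4 and α5 with α6, and they assemble into distinct networks: α1 and α2 in nearly all basement membranes, and α5 with α6 in that of the epidermis among others. Of the 6, 2 were higher (Col4a3 and Col4a4), 2 were lower (Col4a5 and Col4a6) and Col4a1 and Col4a2 did not pass, with a median of 0.14. With 6 genes these are shares of 33.3% each, against 7.99% higher and 18.1% lower over all genes. Col4a4 read 4.62 to 6.20 (median 5.19) on CD34+ arrays and 3.36 to 4.13 (median 3.89) on CD34- arrays, without overlap. The difference was 1.52 (SE 0.25, adjusted p = 0.00068), or 2.87-fold, and other Col4a4 probe sets were at 1.27 (adjusted p = 0.000645) and 0.24.

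Col4a3 read 3.96 to 5.27 (median 4.48) on CD34+ and 3.58 to 4.24 (median 3.79) on CD34- arrays, which overlapped. Its difference was 0.66 (SE 0.19, adjusted p = 0.0223), which lost its call on leaving out CD34- array 4 or 6 (adjusted p of 0.0509 and 0.0516) and was 0.33 (adjusted p = 0.174) without CD34+ arrays 1, 3 and 5. The log2 ratio of Col4a4 to Col4a3 was 0.87 ± 1.02 in CD34+ and 0.005 ± 0.33 in CD34- cells, with overlap.

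Col4a6, of the epidermal α5 and α6 pair, was lower in CD34+ cells. It read 6.02, 6.65, 5.95, 7.0, 6.47 and 6.84 on CD34+ arrays 1 to 6 and 7.20, 7.34, 7.70, 7.85, 7.86 and 8.12 on CD34- arrays. The highest CD34+ array was below the lowest CD34- array. The difference was -1.19 (SE 0.20, adjusted p = 0.000854), a 2.28-fold lower signal, and a second probe set was at -0.67 (adjusted p = 0.0102).

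Col4a5, which starts beside Col4a6 on the X chromosome, was lower with less certainty. It read 6.71, 7.76, 6.18, 7.59, 6.76 and 7.55 on CD34+ arrays 1 to 6 and 7.58, 7.51, 7.95, 8.02, 7.81 and 8.03 on CD34- arrays. CD34+ arrays 2, 4 and 6 lay within the CD34- range, and arrays 1, 3 and 5 were below it. The difference was -0.72 (SE 0.24, adjusted p = 0.0422), or 1.65-fold lower, and -0.18 (adjusted p = 0.429) without CD34+ arrays 1, 3 and 5. Leaving out any 1 of these 3 arrays, or any 1 of CD34- arrays 1, 3, 4, 5 and 6, ended the call (adjusted p up to 0.0945). A second Col4a5 probe set was lower by 0.81 on the log2 scale (a difference of -0.81, adjusted p = 0.000461).

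Neither chain of the ubiquitous α1 and α2 network passed. Col4a1 read 7.19 to 8.10 (median 7.40) on CD34+ and 6.77 to 7.82 (median 7.20) on CD34- arrays, with a difference of 0.29 (SE 0.21, adjusted p = 0.305). Col4a2 read 4.95 to 6.31 (median 5.60) and 5.27 to 6.00 (median 5.68), with a difference of -0.01 (SE 0.23, adjusted p = 0.97). Both overlapped between fractions, and Col4a2 changed sign to 0.47 without CD34+ arrays 1, 3 and 5 and to 0.03 after further quantile normalization.

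The chains that fasten keratinocytes to the basement membrane did not pass. Col17a1, the hemidesmosomal collagen, read 12.28, 12.77, 11.50, 12.38, 11.89 and 12.75 on CD34+ arrays 1 to 6 and 12.39, 12.03, 12.67, 12.69, 12.62 and 12.88 on CD34- arrays. The values overlapped, with CD34+ arrays 3 and 5 below all CD34- arrays. The difference was -0.29 (SE 0.21, adjusted p = 0.323), and 0.09 (adjusted p = 0.803) without CD34+ arrays 1, 3 and 5. Col7a1, the anchoring fibril chain, read 7.37 to 8.72 (median 7.82) on CD34+ and 7.90 to 9.32 (median 8.34) on CD34- arrays, which overlapped. Its difference was -0.54 (SE 0.26, adjusted p = 0.128), -0.16 (adjusted p = 0.769) without those 3 arrays, and called without CD34+ array 4 (-0.71, adjusted p = 0.0315).

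The short-chain network collagens form hexagonal lattices, as in Descemet's membrane of the eye. Of these 3 genes 1 was higher (33.3%, against 7.99% of all genes) and 0 were lower (against 18.1%). The higher gene was Col8a2, the α2 chain of type VIII. It read 7.75, 8.14, 5.50, 7.98, 6.90 and 7.37 on CD34+ arrays 1 to 6 and 2.99, 3.17, 4.01, 2.80, 3.21 and 3.26 on CD34- arrays. The fractions did not overlap, CD34+ array 3 was the lowest of its fraction and CD34- array 4 read within the Trpn range. The difference was 4.03 (SE 0.38, adjusted p = 8.14e-06), or 16.4-fold.

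Col8a1, the α1 chain, was at 0.57 (SE 0.26, adjusted p = 0.121). It was called without CD34+ array 4, and a further Col8a1 probe set was at 0.35 (adjusted p = 0.0367). The log2 ratio of Col8a2 to Col8a1 was 0.90 ± 1.28 in CD34+ and -2.57 ± 0.53 in CD34- cells, without overlap. Col10a1, the chain of growth plate cartilage, was at 0.42 (SE 0.19, adjusted p = 0.114), and passed with the averaged arrays (adjusted p = 0.0397). Without CD34+ arrays 1, 3 and 5 Col10a1 was at 0.05 (adjusted p = 0.839).

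Both multiplexins, basement membrane collagens that carry chondroitin or heparan sulphate, were higher (2 of 2, against 7.99% of all genes). Col18a1, whose end fragment is endostatin, read 9.64, 10.23, 8.41, 9.11, 8.94 and 9.52 on CD34+ arrays 1 to 6 and 7.67, 7.58, 8.05, 8.22, 8.03 and 8.13 on CD34- arrays. The fractions did not overlap, CD34+ array 3 being nearest to the CD34- range. The difference was 1.36 (SE 0.25, adjusted p = 0.00126), or 2.57-fold, with a second probe set at 1.60. Col15a1 was at 0.35 (SE 0.12, adjusted p = 0.0428), lost without any 1 of CD34+ arrays 1, 3 and 5 or CD34- arrays 1, 3, 4, 5 and 6 (adjusted p up to 0.0987).

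Of the 9 fibril-associated collagens (FACIT), which coat fibres rather than form them, 1 was higher and 1 lower (11.1% each, against 7.99% and 18.1% of all genes). Col14a1 read 3.58 to 5.50 (median 4.33) on CD34+ and 3.05 to 3.82 (median 3.50) on CD34- arrays, which overlapped, and its difference of 1.00 (SE 0.27, adjusted p = 0.0135) was 0.95 (adjusted p = 0.0706) without CD34+ arrays 1, 3 and 5 and did not pass with the averaged arrays (adjusted p = 0.051). Col16a1 read 7.21, 6.94, 7.98, 8.22, 7.33 and 7.80 on CD34+ arrays 1 to 6 and 8.33, 8.34, 8.99, 9.15, 8.94 and 8.58 on CD34- arrays. All CD34+ arrays lay below all CD34- arrays. The difference was -1.14 (SE 0.22, adjusted p = 0.00202), or 2.21-fold lower. The other 7, among them Col12a1 (0.53 (SE 0.20, adjusted p = 0.0622)) and Col9a1 (0.63 (SE 0.29, adjusted p = 0.121)), ranged from -0.11 to 0.63 and did not pass. Col9a1 passed with the averaged arrays (adjusted p = 0.00785) and changed sign to -0.03 without CD34+ arrays 1, 3 and 5. Col12a1 was called without CD34+ array 3, and at 0.79 (adjusted p = 0.0141) without CD34+ arrays 1, 3 and 5.

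Col23a1, a transmembrane collagen, gave the largest difference downward. It read 4.16, 5.05, 5.10, 6.74, 5.67 and 6.08 on CD34+ arrays 1 to 6 and 6.76, 7.25, 7.42, 7.87, 7.65 and 7.45 on CD34- arrays. No CD34+ array reached the lowest CD34- array, though CD34+ array 4 came close to CD34- array 1. The difference was -1.94 (SE 0.35, adjusted p = 0.00113), or 3.83-fold lower, with other probe sets at -1.55 and -2.12. The other 2 transmembrane chains beside Col17a1, Col13a1 and Col25a1, were at 0.24 (adjusted p = 0.157) and 0.02 (adjusted p = 0.916).

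Agreement between probe sets was mixed. The 18 called genes had 18 other probe sets, of which 13 were called in the same direction, 0 in the opposite direction and 5 not at all. These other probe sets were unevenly spread, as 15 collagen genes had only 1 probe set. Among the called genes these were Col6a1, Col8a2, Col6a3, Col15a1 and Col16a1. The differences of Col6a1 (4.25) and Col8a2 (4.03), the largest found, thus rest on 1 probe set each. Probe sets of 1 gene also varied in size of difference, as in Col6a2 (3.98 and 1.72) and Col5a1 (0.44, 1.22 and -0.02). Gaps between partner chains, such as that of Col6a1 and Col6a3, compare 1 probe set per chain. They cannot be told apart from gaps between probe sets. The 24 genes not called had 22 other probe sets, of which 3 were called higher, 1 each for Col3a1, Col8a1 and Col9a3 (0.29, adjusted p = 0.0205). That of Col9a3 had both group means (2.65 in CD34+ and 2.35 in CD34-) within the range of the Trpn controls. Some genes that did not pass on all 12 arrays were called higher when 1 array was left out: Col2a1, Col9a1, Col8a1 and Col13a1 without CD34+ array 4, and Col10a1 and Col9a3 without CD34+ array 2. Without CD34+ arrays 1, 3 and 5 these genes lay between -0.03 and 0.16 and none was called.

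The array numbers divide each fraction into 3 odd and 3 even arrays, a split compared here because earlier results of these data had shown it. Within CD34+ cells 7 collagen genes were higher on the odd arrays (background 11.8%) and 5 were lower (background 20.4%). Within CD34- cells 0 of 18193 genes were called, with 106 genes and 1 collagen gene at an unadjusted p under 0.05 in limma. The test of the difference between those patterns, the interaction of fraction and array number, called 0 genes, with 4477 genes and 8 collagen genes at an unadjusted p under 0.05. Its lowest adjusted p was 0.133, shared by Col9a1 (1.08), Col4a5 (-1.01) and Col2a1 (1.00) among others. No label says in what the odd and even arrays differ.

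The largest of these differences within CD34+ cells was that of Col3a1, higher by 3.31 on odd arrays (SE 0.75, adjusted p = 0.0098). A second Col3a1 probe set was at only 0.41. Within CD34- cells the probe set used for Col3a1 was at 1.59 (SE 0.75), which did not pass. The next in size were Col9a1 and Col2a1. Col9a1 read 6.12, 6.65 and 5.95 on the odd and 4.87, 4.74 and 5.12 on the even CD34+ arrays (difference 1.33, adjusted p = 0.00413). Col2a1 read 5.47, 5.93 and 5.34 against 4.60, 4.06 and 4.49 (1.20, adjusted p = 0.00524). In both genes the 3 odd arrays lay above the 3 even ones, while a second Col9a1 probe set was at 0.12. Col10a1, Col6a4, Col4a3 and Col13a1 were higher by 0.73 to 0.44. Second probe sets of Col6a4 and Col4a3 were at 0.61 and 0.065.

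The 5 genes called lower on odd CD34+ arrays were Col4a5, Col4a2, Col4a4, Col17a1 and Col4a6. Col4a5 (-1.08), Col4a2 (-0.96), Col17a1 (-0.74) and Col4a6 (-0.68) read lower on all 3 odd than on all 3 even arrays, with adjusted p from 0.00541 to 0.0381. Col4a4 was at -0.81 (adjusted p = 0.0499), with overlap. Second probe sets of Col4a5 and Col4a6 were at -0.16 and 0.39, and other probe sets of Col4a4 at -0.545 and 0.049. Col8a2 (-1.12), Col23a1 (-0.98) and Col6a1 (-0.84) did not pass, with adjusted p from 0.0624 to 0.0929. Over all genes the split went with the level of the probe set, though not for every gene. The 9096 genes with a mean below the median gene (5.36) had a median odd minus even difference of 0.20 in CD34+. Of these, 1849 were called higher and 249 lower. The 9097 genes at or above it had a median of -0.48, with 290 and 3455. The 25 collagen genes below that mean gave a median of 0.28, with 6 called higher and 1 lower. The 17 collagen genes above it gave -0.53, with 1 and 4. That 1 was Col3a1, whose difference, the largest, thus ran against the trend over all genes.

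**Figure D3:**
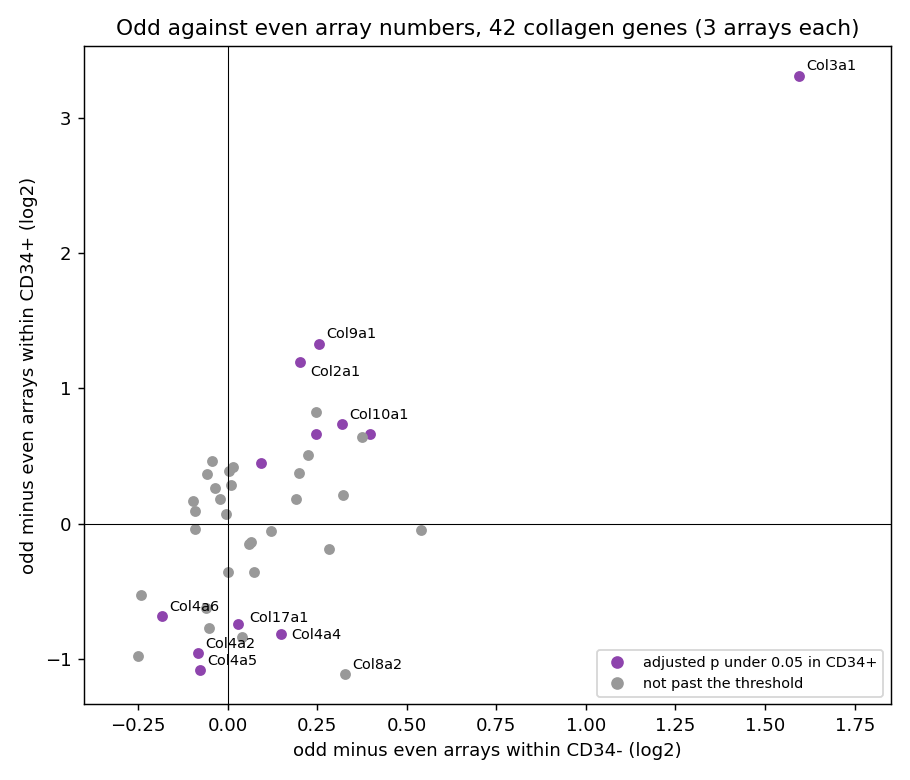
Odd minus even log2 difference of the 42 collagen genes within CD34+ arrays (y axis) against the same within CD34- arrays (x axis), 3 odd and 3 even arrays each; purple points passed limma within CD34+. Col3a1 lies farthest from 0 on both axes (3.31 and 1.59), and the other genes spread more along the CD34+ axis than along the CD34- axis.

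The fraction difference was then read within the odd and within the even arrays. On odd arrays alone 20 collagen genes were higher and 6 lower (backgrounds 12.9% and 25.9%), and on even arrays alone 8 were higher and 1 lower (backgrounds 3.44% and 3.99%). The genes called higher in both were Col6a1, Col6a2, Col8a2, Col1a2, Col5a2, Col4a4, Col18a1 and Col1a1, and the gene called lower in both was Col4a6. Col6a1 was at 3.81 on odd and 4.69 on even arrays, and Col8a2 at 3.31 and 4.76. Col3a1 was at 3.06 (adjusted p = 0.00616) on odd and 1.34 (adjusted p = 0.328) on even arrays. Col4a5 was at -1.23 on odd and -0.22 (adjusted p = 0.542) on even arrays, and Col17a1 changed sign, from -0.67 (adjusted p = 0.0307) to 0.10 (adjusted p = 0.874). All 13 genes called higher over the 12 arrays were above 0, and all 5 called lower were below 0, on odd and on even arrays alike. The odd and even arrays together are the 12 on which these genes were called. Their shared sign is therefore largely given by that choice and is no separate support.

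**Figure D4:**
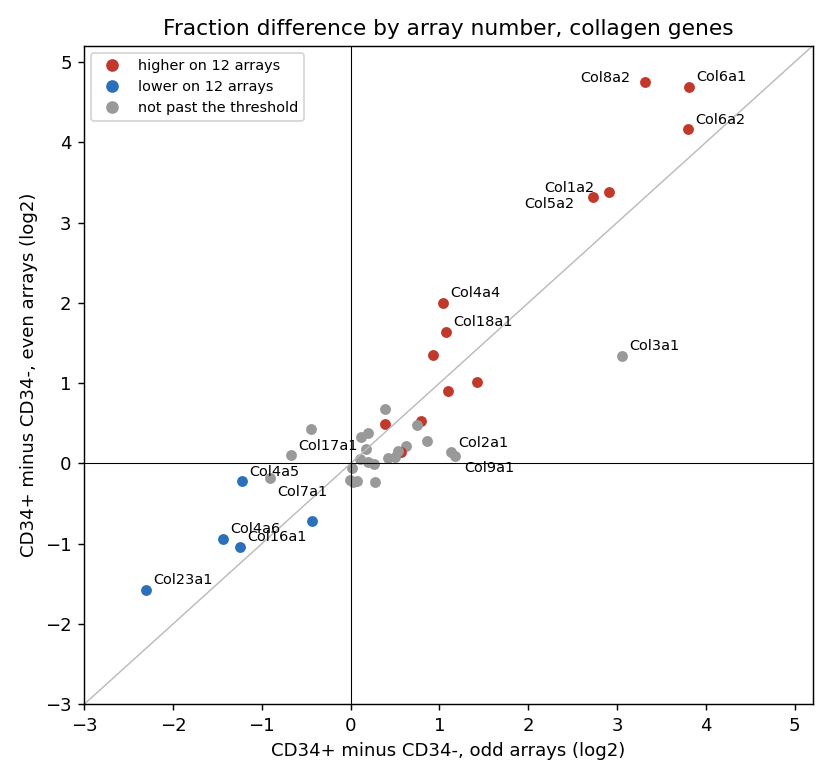
CD34+ minus CD34- log2 difference of the 42 collagen genes on even arrays (y axis) against odd arrays (x axis), 3 arrays per fraction in each; colours give the call on all 12 arrays and the diagonal marks equal values. Col6a1 and Col8a2 lie above 3 on both axes, whereas Col3a1 is at 3.06 on odd and 1.34 on even arrays.

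The enzymes, partners and receptors of collagen were read from lists drawn up for this description. Of 18 enzymes and chaperones of chain modification and folding, 1 was higher and 5 were lower, with a median of 0.05. These are 5.6% and 27.8%, against 7.99% and 18.1% of all genes. The lower ones with the largest differences were Crtap (-0.96 (SE 0.15, adjusted p = 0.00053)), a subunit of the prolyl 3-hydroxylase complex, and Colgalt1 (-0.87 (SE 0.16, adjusted p = 0.00125)), which adds galactose to hydroxylysine. P4hb (-0.69 (SE 0.18, adjusted p = 0.0132)), the β subunit of prolyl 4-hydroxylase, was at -0.35 (adjusted p = 0.0927) without CD34+ arrays 1, 3 and 5. P3h2 (-0.69 (SE 0.12, adjusted p = 0.000731)), a prolyl 3-hydroxylase, was the other of the 4 named. Serpinh1, the collagen chaperone HSP47, did not pass (0.41 (SE 0.24, adjusted p = 0.221)).

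Of 10 genes of procollagen processing and crosslinking 3 were higher (30.0%, against 7.99% of all genes) and 0 lower (against 18.1%), with a median of 0.40. Pcolce2, an enhancer of the C-proteinase that trims procollagen, was at 1.77 (SE 0.30, adjusted p = 0.000721). It read 3.59 to 5.84 (median 4.81) on CD34+ and 2.71 to 3.21 (median 2.96) on CD34- arrays, which did not overlap. CD34- arrays 1, 4 and 6 (2.71, 2.94 and 2.84) were within the Trpn range, so the difference is measured from near the floor. The lysyl oxidases Loxl1 (0.96 (SE 0.33, adjusted p = 0.0489)) and Lox (0.47 (SE 0.16, adjusted p = 0.0391)), which crosslink the fibres, were called too. Each lost the call on leaving out any 1 of 9 arrays, and neither was called without CD34+ arrays 1, 3 and 5 (0.34 and 0.27).

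Of 16 fibril-binding proteoglycans and glycoproteins 10 were higher (62.5%, against 7.99% of all genes), 0 were lower and the median was 0.96. Of the 6 pathway lists this one had the largest share higher. Aspn, asporin, read 4.48 to 7.88 (median 6.47) on CD34+ arrays and 2.34 to 2.89 (median 2.49) on CD34- arrays, the latter as low as the Trpn controls. Its difference of 3.75 (SE 0.41, adjusted p = 2.99e-05) is therefore measured from the floor. Dcn, decorin, was at 2.21 (SE 0.40, adjusted p = 0.00115), Dpt, dermatopontin, at 1.68 (SE 0.26, adjusted p = 0.000395) and Fn1, fibronectin, at 1.58 (SE 0.25, adjusted p = 0.000477). None of these 4 overlapped between fractions. Ogn was called at 1.48 (SE 0.50, adjusted p = 0.0428), with CD34+ arrays 1 and 2 at 5.86 and 6.03 and the rest between 3.14 and 3.34. Its CD34- mean (2.64) was within the Trpn range, and the call was lost on leaving out any 1 of 8 arrays. The call of Lum (0.63) was lost on leaving out any 1 of 6. Without CD34+ arrays 1, 3 and 5, 11 genes of the list were higher (background 8.81%).

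Among 11 collagen receptors 0 were higher and 4 lower (36.4%, against 18.1% of all genes), with a median of 0.06. The lower ones were the anthrax toxin receptors Antxr1 (-1.60 (SE 0.18, adjusted p = 3.16e-05)) and Antxr2 (-1.54 (SE 0.21, adjusted p = 0.000176)), which bind collagens including types IV and VI, the endocytic receptor Mrc2 (-0.81 (SE 0.17, adjusted p = 0.0036)) and the integrin β1 chain Itgb1 (-1.16 (SE 0.33, adjusted p = 0.0184)). Antxr1 read 7.53 to 8.66 (median 7.86) on CD34+ and 9.27 to 9.83 (median 9.53) on CD34- arrays, without overlap. Itgb1 was at -0.51 (adjusted p = 0.134) without CD34+ arrays 1, 3 and 5.

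Of 12 collagen-cleaving proteases and their inhibitors 3 were higher (25.0%, against 7.99% of all genes) and 2 lower (16.7%, against 18.1%), with a median of 0.27. Timp2, an inhibitor of matrix metalloproteinases, read 9.01 to 10.31 (median 9.91) on CD34+ and 7.64 to 8.0 (median 7.87) on CD34- arrays, without overlap, a difference of 1.98 (SE 0.20, adjusted p = 1.39e-05). Timp3, another inhibitor, was lower at -0.78 (SE 0.15, adjusted p = 0.00176). Reck, a membrane-bound inhibitor, was at 0.52 (SE 0.12, adjusted p = 0.00738), and the collagenase Mmp14 at -0.53 (SE 0.17, adjusted p = 0.0408), a call lost on leaving out any 1 of 9 arrays. The collagenase Mmp8 was called higher, at 0.46 (SE 0.16, adjusted p = 0.0457), and its call too was lost on leaving out any 1 of 9 arrays.

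Of 17 basement membrane and hemidesmosome partners 1 was higher and 3 were lower, with a median of 0.08. These shares (5.9% and 17.6%) are close to those over all genes (7.99% and 18.1%). The lower ones were the hemidesmosomal integrin chains Itgb4 (-1.18 (SE 0.28, adjusted p = 0.00626)) and Itga6 (-0.82 (SE 0.14, adjusted p = 0.000897)) and the laminin chain Lamb3 (-0.81 (SE 0.23, adjusted p = 0.0171)). Without CD34+ arrays 1, 3 and 5 Itgb4 (adjusted p = 0.0998) and Lamb3 (adjusted p = 0.0681) were not called. Nid1, nidogen, which bridges laminin and type IV collagen, was at 1.15 (SE 0.39, adjusted p = 0.0445). Its CD34+ arrays 1 and 2 read 5.27 and 5.76 and the other 4 between 3.26 and 3.57, and the call was lost on leaving out any 1 of 8 arrays.

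**Figure D5:**
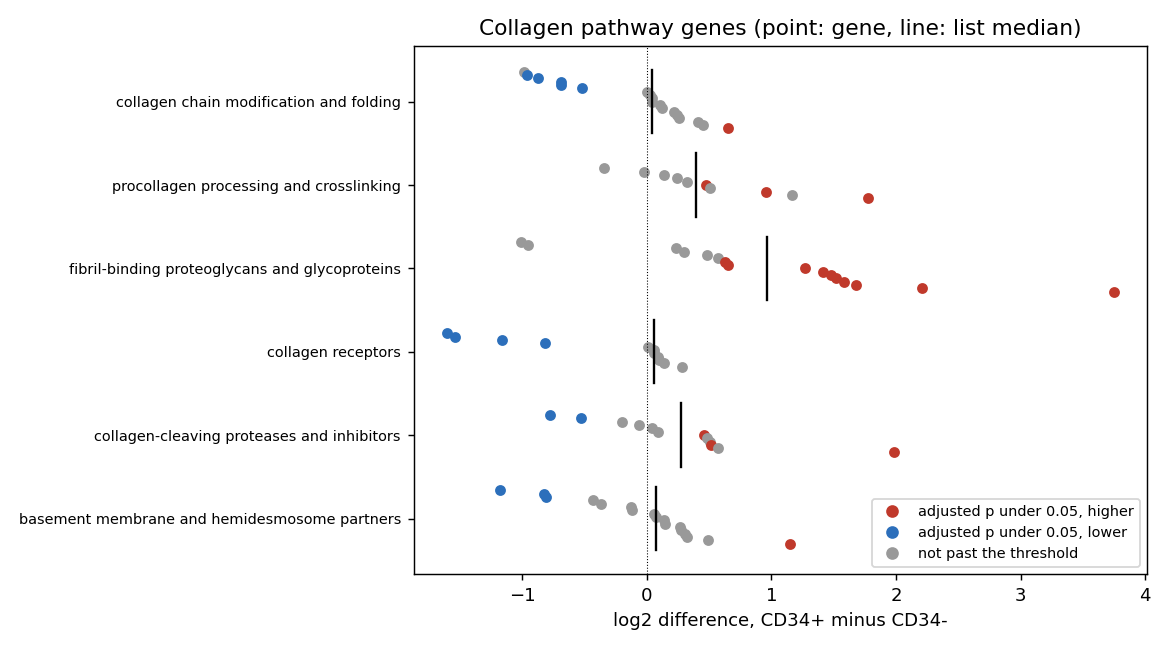
CD34+ minus CD34- log2 difference (x axis) of the measured genes in each collagen pathway list (1 row per list); points are genes, red called higher, blue called lower and grey not called by limma, and the vertical line is the list median. The fibril-binding list has 10 of 16 genes called higher, and the receptor list 4 of 11 called lower.

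Markers of cell types were read from lists as well. Of 14 dermal fibroblast markers without collagens, 6 were higher in CD34+ cells and 1 lower (42.9% and 7.1%, against 7.99% and 18.1% of all genes), with a median of 0.59. Without CD34+ arrays 1, 3 and 5 the median was 0.09 and 5 were higher (against 8.81% of all genes). The mean level over the list was 4.92 to 5.68 on CD34+ and 4.57 to 4.97 on CD34- arrays. Dcn (2.21), Dpt (1.68), Fbln1 (1.41), Fbln2 (0.66), Lum (0.63) and Prrx1 (0.54) were the higher ones. Lum was not called (0.30) without the 3 odd CD34+ arrays, and Prrx1 read within the range of the Trpn controls in CD34- cells (mean 2.89), so its difference is measured from the floor. Thy1, also a T cell marker, was lower (-1.90). Pdgfra (0.95), Vim (0.68), Fap (0.42), Mfap5 (0.22), Twist2 (0.10), Pdgfrb (0.001) and Mmp2 (-0.20) did not pass. Pdgfra and Vim were higher on the odd than on the even CD34+ arrays by 2.21 (adjusted p = 0.00895) and 3.87 (adjusted p = 0.0057). No marker of the list was within the range of the Trpn controls in both fractions. The part of such cells in the collagen results was not tested.

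Other lists gave these counts, to be read against 7.99% higher and 18.1% lower over all genes. Of 8 smooth muscle and pericyte markers 3 were higher (37.5%), and 1 without CD34+ arrays 1, 3 and 5, where 8.81% of all genes were. The 2 of highest mean were Acta2 (0.42, not called, but 2.41 higher on odd than even CD34+ arrays, adjusted p = 0.00427) and Cspg4 (0.80). Of 9 endothelial markers 0 passed, with Eng at 0.24 and Kdr at 0.11, and Tek and Emcn within the Trpn range in both fractions. Of 4 Schwann cell markers 1 was higher and 2 lower (Ngfr -1.0 and Mbp -0.61). The Mbp call was lost on leaving out any 1 of 9 arrays and Mbp was at -0.17 without CD34+ arrays 1, 3 and 5. Of 8 melanocyte markers 2 were higher and 1 lower. Of the 2 of highest mean Mitf was higher (3.13) and Dct did not pass (-0.36), and the lower marker was Tyrp1 (-0.67, adjusted p = 0.0325), a call lost on leaving out any 1 of 6 arrays. Of 3 adipocyte markers 0 passed (Retn 0.38 and Fabp4 0.17).

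All 7 T cell markers were lower in CD34+ cells (median -2.18, Ptprc -2.80 and Thy1 -1.90), as were 5 of 9 Langerhans and myeloid markers (median -0.73). Of the latter list's 2 members of highest mean H2-Eb1 was lower (-0.73), and H2-Aa did not pass (-0.58, adjusted p = 0.0616). All 6 basal keratinocyte markers were lower (median -1.10, Krt14 -1.37 and Krt5 -1.04), 3 of them without CD34+ arrays 1, 3 and 5. Of 10 bulge markers without Cd34, 9 were higher (median 3.83, Nfatc1 1.41), and Krt15 was at -0.29 and did not pass.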

How the data were processed

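Values were taken as deposited, as log2 signals made by the authors with RMA, per the submitters' processing notes. The RMA version, and whether the 12 arrays were normalized together, are not given in the sources used here. RNA was extracted with a miRNeasy kit and labelled with biotin, per the labels' protocols. Of 45101 probe sets, 64 controls were left out, 34945 were tied to 1 gene by GEO's platform annotation, 932 to several and 9160 to none here, giving 18193 genes. RMA gives no detection call.

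The test was limma's moderated test (limma 3.58.1 under R 4.3.3), run two-sided on all genes through lmFit and eBayes. A gene was called at a Benjamini-Hochberg adjusted p under 0.05. Positive values mean higher in CD34+ cells. A fit of 4 groups (fraction by odd or even array number) gave the odd minus even contrasts and the interaction. The number of arrays limits the precision, and p-values measure only the spread between these arrays. The fit was checked on simulated data. Values of other probe sets come from a fit over all 45037 probe sets.

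Named in full are collagen genes past the threshold with a log2 difference of 1 or more, all chains of types I, III, IV, VI, VII and XVII, up to 4 called genes of each pathway list, all fibroblast markers, and the 2 markers of highest mean in each other list. Beyond this rule, Serpinh1, Ogn and further collagen genes were named after their values were seen. Members, lists and the odd and even split were chosen with earlier results of these data known. The collagen pairs whose ratios are given were picked after the values were seen. A permutation test was run on 10 collagen pairs, these among them, and its p-values are not used here.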

Additional observations from a re-analysis of the deposited data

Results flagged for a closer look

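In 84 groups of 6 arrays (42 collagen genes in each fraction), a single array stood far from the other 5 in 2. Chance flags about 1 group in 20. Col1a2 read 4.20 on CD34- array 4, with the nearest other CD34- array at 5.07. Col4a4 read 3.36 on CD34- array 2, with the nearest other at 3.86. Both lie on the side away from the CD34+ arrays.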

How the results depend on the processing

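Col6a1, Col6a2, Col8a2, Col1a2, Col5a2, Col4a4, Col18a1, Col1a1 and Col4a6 kept their direction and call under all 25 alternatives run for them. Against 13 collagen genes higher and 5 lower, the alternatives gave 20 higher on odd arrays (12 of the 13 and others) and 8 on even arrays, and 3 lower after further quantile normalization and 1 on even arrays. Leaving out 1 array gave 10 to 19 higher and 3 to 6 lower, the 3 being without CD34- array 3 or 4. Over all genes 1454 were higher and 3296 lower. Centring each array on its median gave 901 higher, all probe sets 3439 higher and 6265 lower, odd arrays 2346 higher, even arrays 626 and 725, and leaving out CD34+ arrays 1, 3 and 5 gave 1900 lower. Leaving out 1 array gave 1041 to 2068 higher and 2627 to 3889 lower. The lower share of calls was 69.4%, 54.3% after quantile normalization and 80.8% after centring, which moved the median gene from 0.04 to -0.06 and the median collagen gene to 0.22. Among the chains named in full, signs turned for Col17a1 (0.086 without CD34+ arrays 1, 3 and 5, 0.10 on even arrays), Col6a4 (-0.041 without those 3), Col6a5 (0.025 on odd arrays) and Col4a2 (0.034 after quantile normalization, 0.069 with array weights, 0.47 without those 3, 0.43 on even arrays, -0.15 to 0.13 on leaving out 1 array). Signs turned too, under 1 or more settings, for Col9a1, Col11a1, Col11a2, Col19a1, Col22a1, Col24a1, Col25a1 and Col26a1. None of these was called on all 12 arrays, but Col9a1 was called under 4 other settings. The cause of the turned signs was not tested. Of the lower genes, Col16a1, Col23a1, Col27a1 and Col4a5 lost their calls on even arrays (adjusted p = 0.124, 0.0582, 0.07 and 0.542). Of the higher ones, Col6a3 (0.364), Col14a1 (0.317), Col4a3 (0.0643), Col5a1 (0.19) and Col15a1 (0.65) lost theirs there. Quantile normalization ended the calls of Col27a1 (0.336), Col4a5 and Col15a1. Col3a1 was called with the mean of its probe sets (1.54, adjusted p = 0.0296). The interaction of fraction and array number called 0 collagen genes in each of 20 fits. With array number as a replicate block, 19 collagen genes were higher and 5 lower (all genes 1471 and 3527), and Col3a1 was called (2.20, adjusted p = 0.00255). Deviations of same-numbered arrays correlated at 0.435, -0.27, 0.218, 0.502, -0.169 and 0.437 for numbers 1 to 6. Numbers 1, 4 and 6 had their own number as best partner, and numbers 2, 3 and 5 did not. These values do not settle whether same-numbered arrays share an isolation. Both fractions of an isolation came from 1 pool of mice, but the labels tie no array number to an isolation. The main fit therefore left any such pairing out, and only the replicate block took it in. Arrays 1-2, 3-4 and 5-6 within a fraction had a consensus correlation of -0.157. Each such pair holds 1 odd and 1 even array, and odd and even CD34+ arrays differed. The correlation therefore cannot say whether these arrays share an RNA. With the pairs averaged that split no longer adds to the spread, and the SE of Col3a1 was 0.45, against 0.86 on 12 arrays. The signal near the Trpn controls limits the lowest chains.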
